A study of Bos taurus with 8 samples.

Results

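Genes of the extracellular matrix and of the enzymes that remodel it were followed in the mammary gland of dairy cows of high and low milk yield. Members were taken by gene name alone: every collagen chain (names such as COL1A1), every laminin chain (LAMA, LAMB, LAMC), the matrix metalloproteinases (MMP), their tissue inhibitors (TIMP), the ADAMTS proteases, and FN1, SPARC, DCN, LUM, BGN, FBN1 and POSTN. This gave 91 of the 25766 gene names on the array, 34 of them collagen chains, covered by 253 probes of 60 bases. Each gene was represented by its brightest probe, and 67 of the 91 were well above background in enough samples to be tested, as were 18125 gene names in all.

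The samples were 8 healthy lactating Holstein Friesian cows, each represented by total RNA from a part of the udder. Of these, 4 were high yielders (mean 11097 kg of milk in a lactation) and 4 low yielders (mean 6956 kg). A high and a low yielder at equal lactation number made up each of the 4 pairs and shared 2-colour arrays, with the high yielder in the red dye Cy5 on 1 array and in the green dye Cy3 on the other. Pairs 1 and 2 were in lactation II and lay on slide 1, and pairs 3 and 4 were in lactation IV and lay on slide 2, so lactation and slide cannot be told apart. The labels name the breed, yield and lactation of each cow and no treatment. Every ratio below is on the log2 scale, high over low yielder, so that 1 stands for a doubling. A pair's value is the mean of its dye-swapped arrays, and the replicate is the pair (n = 4).

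Collagens are built from 3 chains wound into a triple helix, in which glycine recurs at a fixed spacing. Fibrillar collagens, chiefly types I and III, give connective tissue its strength, while type IV collagen and the laminins form the sheet-like basement membrane on which the milk-secreting epithelium and its myoepithelial cells rest. Fibronectin, periostin and the small proteoglycans decorin, lumican and biglycan organise the fibres between the alveoli. Metalloproteinases and ADAMTS enzymes cut these proteins, TIMPs block the metalloproteinases, and in the mammary gland this balance is known for its part in branching, lactation and involution.

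Per channel, 22027 to 42481 of the 43653 probes exceeded background clearly. The tissue label was checked against milk protein genes, and 7 of 7 secretory markers could be tested. Their mean level, as rebuilt log2 intensity, lay between 16.65 and 19.43 in the high yielders and between 17.60 and 17.89 in the low yielders of pairs 2, 3 and 4, but at 11.87 in the low yielder of pair 1. That cow stood apart, and the median ratio of the secretory markers was 7.10 in pair 1 and -1.16, -0.86 and -1.04 in pairs 2, 3 and 4. The main counts of members for yield are therefore given with and without pair 1. Over the 67 members tested, the correlation between both arrays of a pair was 0.87, 0.49, 0.68 and 0.72 in pairs 1 to 4, where genes are not independent replicates. Between pairs the same correlation lay from -0.44 (pairs 1 and 2) to 0.08 (pairs 2 and 4).

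The main question was whether matrix genes differ between cows of high and low yield. With limma and Benjamini-Hochberg adjustment over all genes tested, 0 of 67 members and 0 of 18125 genes (0% of the background) passed at 0.05, and the adjusted p of the members lay between 0.774 and 0.999. At an unadjusted p under 0.05 stood 2 members, MMP19 and COL28A1, which is 2.99% of the members against 5.42% of all genes. The median ratio of the members was 0.14, and that of all genes tested was 0.02. Higher in the high yielder of 4 of 4 pairs were 6 members (8.96%, against 9.36% of all genes): COL28A1, COL2A1, COL5A3, LAMA5, MMP1 and MMP19. Lower in 4 of 4 pairs were 0 members, against 8.17% of all genes. The share of members that kept 1 sign over all pairs was thus near or below the background. As the tissue was measured in bulk, fewer cells of a type and less RNA per cell cannot be told apart in these values.

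Without pair 1, 12 members (17.9%) were higher in 3 of 3 pairs, against 21.5% of all genes. COL4A1 alone was lower in 3 of 3 pairs, which is 1.49% of the members against 17.7% of all genes. At an unadjusted p under 0.05 stood 6 members (8.96%, against 11.8% of all genes): MMP2, MMP19, COL18A1, TIMP1, COL4A6 and COL28A1. None of them passed after adjustment (limma, lowest adjusted p = 0.406).

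**Figure D1:**
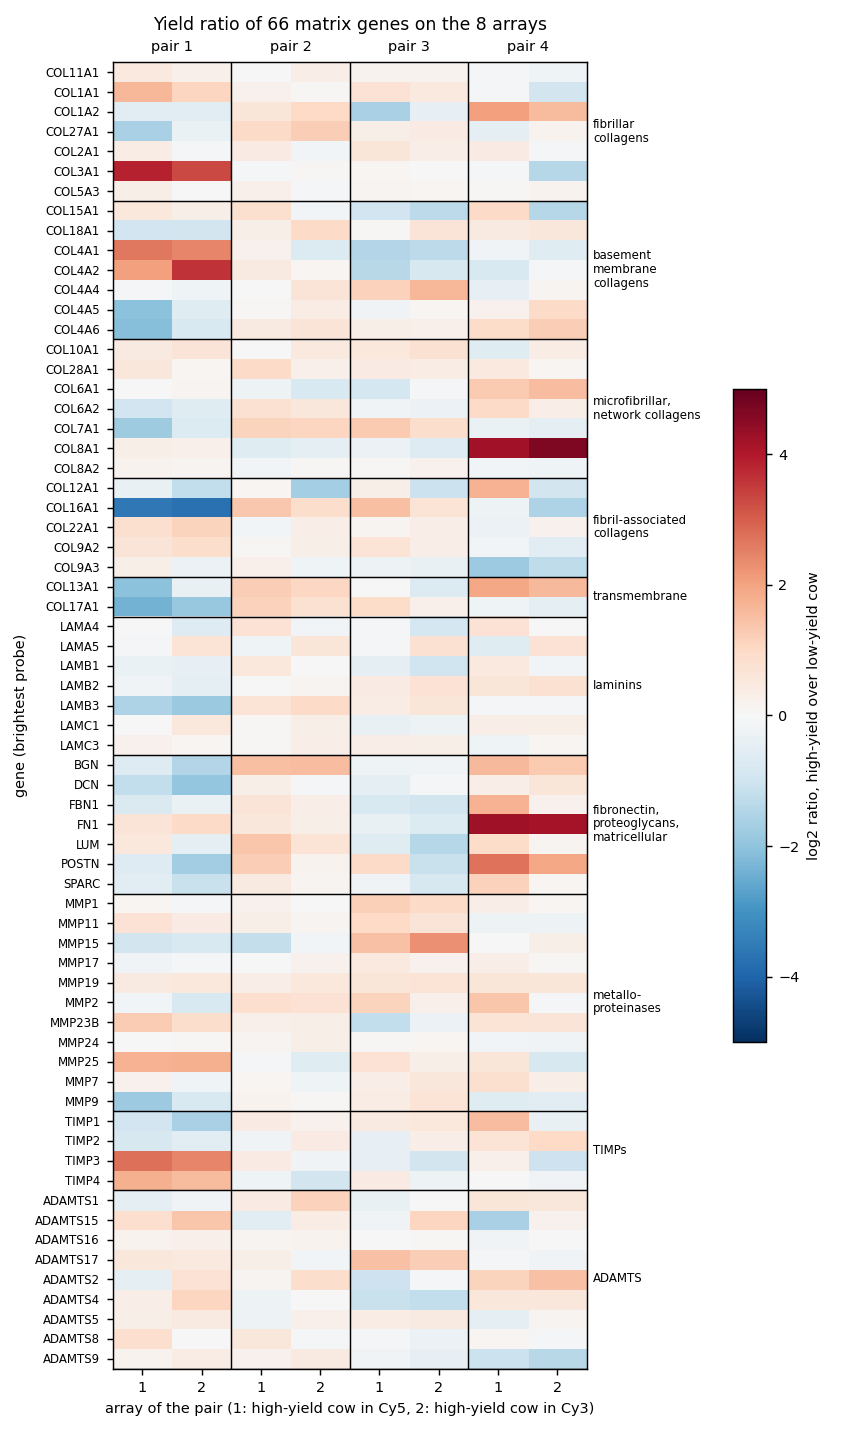
Log2 ratio of high over low yield for 66 of the 67 matrix genes tested (rows, by class) on the 8 arrays (columns, by cow pair and dye), red where the high yielder was higher. COL3A1, COL4A1, COL4A2, TIMP3 and COL16A1 stand out in pair 1, and FN1 and COL8A1 in pair 4.

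The members differed most within single cow pairs. A gene was counted in a pair when both dye-swapped arrays were past 2-fold in 1 direction. By this count 26 of 67 members (38.8%) were past 2-fold in at least 1 pair, against 19.6% of all genes. Among genes well above background in all 16 channels the shares were 25 of 54 members (46.3%) and 23.3% of 13786 genes. Without pair 1 they were 16 of 67 members (23.9%) and 11.9% of all genes. The 29 member values counted, 21 higher and 8 lower, kept their sign under 6 other ways of scaling or dye choice, with 0 exceptions. The dye choices are the arrays the count was made on, so the sign there was fixed beforehand. The other scalings rework signals of the same arrays, so a kept sign there is no independent support. Not all values stayed past 2-fold under the other scalings. With median centring in place of loess, COL1A1, TIMP4 and MMP25 in pair 1 read 0.15, 0.45 and 0.57. With another fit of normexp, COL13A1 in pair 2 read 0.51 and ADAMTS4 in pair 3 read -0.59. The genes counted, and others below that stand outside the naming rule, were singled out after their values were seen. With 1 cow of each yield in a pair there is no test of a single pair, and a pair's difference cannot be told apart from differences between individual cows.

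In pair 1, 7 members were more than 2-fold higher in the high yielder (10.4%, against 6.4% of all genes), namely COL1A1, COL3A1, COL4A1, COL4A2, MMP25, TIMP3 and TIMP4. More than 2-fold lower were 4 members (5.97%, against 4.6%), namely COL16A1, COL17A1, DCN and LAMB3. In pair 2, BGN, COL13A1 and COL7A1 were higher (4.48%, against 1.05%) and 0 members lower (background 0.563%). In pair 3, ADAMTS17, COL4A4 and MMP15 were higher (4.48%, against 5.95%), and ADAMTS4 and COL4A1 lower (2.99%, against 2.92%). In pair 4, 8 members were higher (11.9%, against 1.88%), namely ADAMTS2, BGN, COL13A1, COL1A2, COL6A1, COL8A1, FN1 and POSTN. ADAMTS9 and COL9A3 were lower there (2.99%, against 1.5%). Only BGN, COL13A1 and COL4A1 entered these lists in more than 1 pair, and COL4A1 did so in opposite directions.

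Of the 9 fibrillar collagen genes on the array 7 were tested, and the class median was 0.13, 0.14, 0.18 and -0.13 in pairs 1 to 4. The type I and type III genes are the main fibre-forming chains, and their probes gave different answers. The brightest probe of COL3A1 read 3.84 and 3.29 on the arrays of pair 1, -0.06 and 0.05 in pair 2, 0.10 and 0.03 in pair 3 and -0.05 and -1.41 in pair 4. Its pair means were 3.56, -0.00, 0.06 and -0.73, an 11.8-fold higher signal in the high yielder of pair 1 alone. The 9 other kept probes of COL3A1 were close to each other and not to this one. They lay between -0.50 and -0.06 in pair 1, between 0.89 and 1.89 in pair 2, between -1.39 and -0.73 for pair 3 and between 1.09 and 2.66 for pair 4. A gene-level value of COL3A1 is therefore uncertain, and the direction depends on the probe in every pair.

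The probes of these genes are shown because the answer turned on which one was read. Sequences are those of the scanner files, 5′ to 3′, with positions on build HGSC Btau_3.1 and no exon annotation of that build used here. Capitals mark glycine codons (GGN) that recur in 1 reading phase at a spacing of 9 bases or a multiple of it, the mark of the triple helix, where a probe holds at least 4 of them. The brightest COL3A1 probe lies at chr2:7743600-7743659 on the minus strand and carries 5, while an adjoining kept probe, at chr2:7743530-7743589, is separated from it by 10 bases and holds fewer than 4. A further COL3A1 probe lies at chr2:7741995-7742054.
COL3A1 brightest probe: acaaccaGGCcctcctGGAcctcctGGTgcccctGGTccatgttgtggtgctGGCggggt
COL3A1 adjoining probe: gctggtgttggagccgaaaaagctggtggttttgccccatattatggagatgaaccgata
COL3A1 further probe: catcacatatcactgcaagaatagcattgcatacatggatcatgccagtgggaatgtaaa
The brightest and the adjoining probe read 3.56 against -0.06 in pair 1, -0.00 against 0.89 in pair 2, 0.06 against -0.73 for pair 3 and -0.73 against 1.09 for pair 4. The further probe read -0.25, 1.19, -1.26 and 1.55 in pairs 1 to 4.

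The kept probes of COL1A1, the alpha 1 chain of type I collagen, differed among themselves too. Its brightest probe, at chr19:37647299-37647502 on the plus strand, carries the repeat and read 1.37, 0.14, 0.61 and -0.49 in pairs 1 to 4. Its second probe, at chr19:37651511-37651570, read 0.03, 0.92, -0.86 and 2.57. The probes at chr19:37646195-37646474, with 7 glycine codons, and chr19:37651234-37651293, with fewer than 4, read 0.01, 0.21, -0.08 and 0.73, and 0.70, 0.24, 0.36 and 0.93.
COL1A1 brightest probe: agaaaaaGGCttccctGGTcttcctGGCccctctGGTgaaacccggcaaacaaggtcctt
COL1A1 second repeat probe: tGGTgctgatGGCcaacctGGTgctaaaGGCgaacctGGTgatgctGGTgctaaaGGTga
COL1A1 probe without repeat: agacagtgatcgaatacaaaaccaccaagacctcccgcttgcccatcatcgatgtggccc
COL1A2, the alpha 2 chain that pairs with it, was represented by a probe without the repeat. That probe read -0.59 and -0.51 on the arrays of pair 1, 0.61 and 0.98 in pair 2, -1.63 and -0.42 in pair 3 and 2.06 and 1.57 in pair 4, with pair means of -0.55, 0.80, -1.03 and 1.81. Its 3 other kept probes without the repeat had the same sign in every pair, between 1.42 and 1.69 in pair 4. The kept repeat probe, at chr4:12047111-12047170, read 0.60, 0.29, 0.50 and 0.46, while the probe without repeat at chr4:12053490-12053547 read -0.49, 0.52, -0.85 and 1.42.
COL1A2 repeat probe: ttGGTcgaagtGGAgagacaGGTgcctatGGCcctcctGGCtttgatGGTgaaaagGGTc
COL1A2 probe without repeat: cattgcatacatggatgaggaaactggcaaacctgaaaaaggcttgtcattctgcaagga
The kept probes without the repeat of COL1A2 and COL3A1 were lower in the high yielder of pairs 1 and 3 and higher in that of pairs 2 and 4. Those of COL1A1 were not: its 3 such probes lay between 0.03 and 0.70 in pair 1, between 0.19 and 0.92 in pair 2, between -0.86 and 0.36 for pair 3 and between 0.93 and 2.57 for pair 4. The repeat was looked for after the values had been seen. It occurred in 165 of 43653 probes of the array (0.378%), in 19 of 107 probes of collagen members (17.8%) and in 1 of 146 probes of the other members (0.685%). Whether it bears on the readings was not tested.

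**Figure D2:**
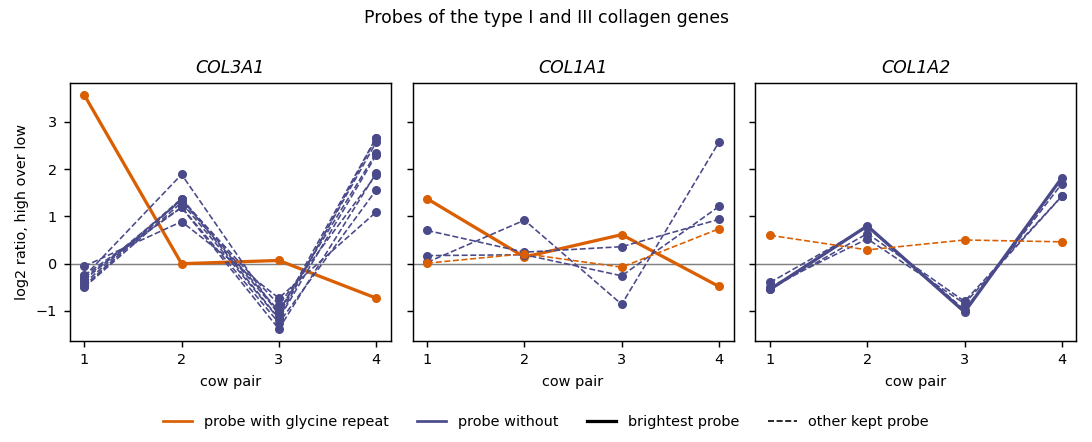
Log2 ratio of high over low yield in the 4 cow pairs for each kept probe of COL3A1, COL1A1 and COL1A2, where lines only join the values of 1 probe. Probes with the glycine repeat are orange, and the brightest COL3A1 probe runs from 3.56 to -0.73 where the 9 others run from below 0 in pair 1 to between 1.09 and 2.66 in pair 4.

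The other fibrillar chains stood nearer 0. COL2A1, known from cartilage, had pair values of 0.13, 0.13, 0.47 and 0.18 (mean 0.23 ± 0.16, SD, n = 4), and COL5A3 stood between 0.10 and 0.12 in every pair. Both were dim, and the ratio was below 0 on 3 of the 8 arrays for COL2A1 and on 2 of 8 for COL5A3. COL27A1 read -0.98, 1.10, 0.34 and -0.13. COL11A2 and COL24A1 were not well above background in enough channels to be tested.

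Among the basement membrane collagens, 7 of 8 were tested. COL4A1 and COL4A2, which together form the usual type IV molecule, had the same sign in pairs 1, 3 and 4. COL4A1 (chr12:82951471-82951530, minus strand) read 2.64 and 2.44 in pair 1, 0.23 and -0.69 in pair 2, -1.47 and -1.31 for pair 3 and -0.17 and -0.60 for pair 4. COL4A2 (chr12:83238935-83238994, plus strand) read 2.05 and 3.61, 0.46 and 0.09, -1.39 and -0.79, and -0.78 and -0.07 in pairs 1 to 4. In pair 1 these were 5.82-fold and 7.12-fold higher signals in the high yielder, and in pair 3 COL4A1 was 2.62-fold lower. The low yielder of pair 1 had the lowest COL4A1 level of the 8 cows, 10.34 against 10.48 to 12.88 in the other 7, and the lowest COL4A2 level, 7.65 against 8.50 to 10.48. The other kept probes had the same sign as the brightest in pair 1 (3 of COL4A1, from 0.31 to 2.07, and 2 of COL4A2, from 0.78 to 1.31).

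COL4A5 and COL4A6, the chains of a second type IV molecule found in some epithelia, went the other way in pair 1, at -1.34 and -1.45. In pair 4 they stood at 0.58 and 1.09. COL4A4 was highest in pair 3, at 1.15 and 1.65 on its arrays, and between -0.15 and 0.30 in the other pairs. COL18A1, the precursor of endostatin, read -0.94 in pair 1 and 0.63, 0.36 and 0.51 in pairs 2 to 4. COL15A1 read 0.43 and 0.32 in lactation II and -1.12 and -0.24 in lactation IV, with opposite signs on the arrays of pair 4 (0.96 and -1.44). The median of the class was -0.13, 0.30, -0.03 and -0.15 in pairs 1 to 4. Endothelial markers, whose cells also rest on type IV collagen, had medians of 0.71, -0.21, -0.06 and 0.33 over 7 of 8 tested, with VWF not tested, and 7 of 7 were higher in the high yielder of pair 1. Their mean level lay between 9.14 and 9.92 in high and between 8.85 and 9.55 in low yielders, and their part in the COL4A1 and COL4A2 values was not tested.

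Laminins are trimers of an alpha, a beta and a gamma chain, and 8 of 10 chains were tested. LAMB3 belongs to the laminin trimer that anchors epithelia to the basement membrane. LAMB3 (chr16:71875236-71875295) read -1.54 and -1.84 in pair 1, 0.69 and 0.95 in pair 2, 0.37 and 0.62 for pair 3 and -0.05 and -0.07 for pair 4. LAMA3, the alpha chain of that trimer, was above background in 3 of 8 channels of high and 4 of 8 of low yielders and was not tested. LAMA4 and LAMB1 were lower in the high yielder of pairs 1 and 3 (between -0.72 and -0.33) and higher in pairs 2 and 4 (between 0.17 and 0.38) as pair means. The arrays differed in sign in pairs 2 (0.51 and -0.02) and 4 (0.48 and -0.13) for LAMB1 and in pair 2 (0.74 and -0.14) for LAMA4, and the median of the 3 other kept LAMA4 probes was 0.38 in pair 3. LAMC1, the gamma chain of most laminins, stayed between -0.30 and 0.30. The name LAMB2 is uncertain, since the file describes that probe as a gamma 1 chain formerly called LAMB2. Its values were -0.31, 0.07, 0.56 and 0.67.

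LAMA5 was higher in the high yielder of 4 of 4 pairs (0.29, 0.20, 0.35 and 0.06), but the dyes did not agree. All 4 arrays with the high yielder in Cy5 were below 0 (-0.09, -0.22, -0.07 and -0.61) and all 4 with that cow in Cy3 above 0 (0.68, 0.62, 0.76 and 0.72). The difference between the dyes was larger than any pair value, and with Cy5 alone the mean was -0.25.

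Some collagens had the signs of LAMB3. COL7A1, the collagen of anchoring fibrils, read -1.77 and -0.66 in pair 1, 1.10 and 1.07 in pair 2, 1.33 and 0.89 for pair 3 and -0.35 and -0.44 for pair 4. COL17A1, a hemidesmosome protein whose probe is unmapped in the file, read -2.35 and -1.91, 1.13 and 0.77, 0.94 and 0.24, and -0.22 and -0.43. COL16A1, a fibril-associated collagen at chr2:126045911-126045970, read -3.58 and -3.74, 1.34 and 0.88, 1.49 and 0.70, and -0.24 and -1.53. The signal of COL16A1 was 12.7-fold lower in the high yielder of pair 1. Its level was 14.87 in the low yielder of pair 1 and 13.27 in that of pair 4, against 10.60 to 12.39 in the other 6 cows. The low yielder of pair 1 also had the highest COL17A1 level, 13.83 against 10.82 to 12.34, and the highest LAMB3 level, 13.62 against 11.18 to 12.31. Ratios below 0 in pairs 1 and 4 and above 0 in pairs 2 and 3 were seen in 7 members (10.4%, against 5.3% of all genes), namely these 4 and COL4A4, COL27A1 and MMP9. The pattern was picked out after the values were seen, and COL13A1, the other transmembrane collagen tested, did not have it. The second kept probes had the same sign as the brightest in 4 of 4 pairs for COL16A1 and in 3 of 4 for COL17A1 and LAMB3.

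Epithelial markers differed within the pairs as well. Myoepithelial markers had a median of -0.83, 0.10, 0.72 and -0.27 over 4 of 5 tested, with TP63 not tested, and a mean level between 9.52 and 9.94 in high and between 9.14 and 10.50 in low yielders. Luminal markers had a median of -1.75, 0.08, 0.66 and 0.35 over 6 of 6. Those higher in the high yielder numbered 2, 3, 5 and 4 of 6 in pairs 1 to 4. In pair 1 single luminal markers lay between -3.25 (KRT18) and 2.10 (ELF5). KRT19 was higher in the high yielder on 8 of 8 arrays, as was 1.93% of all genes. Its mean was 1.28, and it did not pass after adjustment (limma, adjusted p = 0.774). The mean level of the luminal list lay between 12.76 and 13.45 in high and between 12.49 and 14.02 in low yielders. The part of the epithelial markers in the collagen and laminin values was not tested.

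Of the 8 microfibrillar and network collagens 7 were tested, and 1 of them had the largest value of all members. COL8A1, a short-chain network collagen known from vessel walls, read 0.28 and 0.27 in pair 1, -0.59 and -0.47 in pair 2, -0.30 and -0.65 for pair 3 and 4.20 and 4.68 for pair 4. Its level was 10.83 in the high yielder of pair 4 and between 6.40 and 7.09 in the other 7 cows. The 3 other kept probes of COL8A1 read between 3.36 and 4.51 in pair 4. COL6A1, of the beaded microfibrils, read 1.32 and 1.55 in pair 4 and 0.05, -0.52 and -0.47 in pairs 1 to 3, while COL6A2, its partner chain, read -0.78, 0.66, -0.25 and 0.63. COL13A1, a transmembrane collagen, read -1.21, 1.13, -0.36 and 1.76.

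COL28A1, which shares domains with the type VI chains, was higher in the high yielder on 8 of 8 arrays, as was 1.93% of all genes. Its arrays read 0.55 and 0.11, 0.98 and 0.27, 0.42 and 0.38, and 0.49 and 0.11 in pairs 1 to 4. The mean was 0.41 ± 0.15 (SD, n = 4), with an adjusted p of 0.774 (limma). The signal was faint, well above background in 6 of 8 channels of high and 5 of 8 of low yielders. A second probe read 0.08, 0.31, 0.24 and 0.01. COL10A1, known from growth cartilage, read 0.55, 0.25, 0.63 and -0.11.

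Fibril-associated collagens bind to the surface of collagen fibres, and 5 of 6 were tested. Besides COL16A1, COL12A1 read -0.80, -0.80, -0.40 and 0.42, but its arrays differed by dye and stood at 1.75 and -0.90 in pair 4. COL9A3 was lowest in pair 4, at -1.83 and -1.25. COL22A1 and COL9A2 were higher in the high yielder of pair 1, at 0.95 and 0.75, and between -0.34 and 0.50 elsewhere.

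The 7 interstitial genes FN1, POSTN, BGN, DCN, LUM, SPARC and FBN1 lay mostly on 1 side of 0 within a pair. The number higher in the high yielder was 2 of 7 in pair 1, 7 of 7 in pair 2, 0 of 7 for pair 3 and 7 of 7 for pair 4. Over all genes tested the shares higher were 48.5%, 55.6%, 51.7% and 50.3%, and over the 67 members 55.2%, 79.1%, 56.7% and 56.7%. The median of the 7 was -0.84, 0.50, -0.48 and 0.97. The counts of pairs 2 and 4 were 7 of 7 under every scaling tried and 6 and 7 of 7 with the high yielder in Cy3 alone. With all kept probes of a gene averaged, the counts of pairs 1 to 4 were 1, 7, 2 and 7 of 7.

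Fibronectin (FN1), the adhesive glycoprotein on which cells assemble fibres and whose probes have no position in the file, read 0.65 and 0.94 in pair 1, 0.58 and 0.30 in pair 2, -0.37 and -0.70 for pair 3 and 4.23 and 4.16 for pair 4. The signal of FN1 in pair 4 was 18.4-fold higher in the high yielder, whose level of 14.46 lay above the 10.26 to 12.26 of the other 7 cows. The 7 other kept FN1 probes read between 1.65 and 4.18 in that pair. Periostin (POSTN), a matricellular protein of collagen-rich tissue, read -0.66 and -1.75 in pair 1, 1.24 and 0.19 in pair 2, 0.96 and -1.12 for pair 3 and 2.71 and 1.94 for pair 4. In pair 4 the low yielder had the lowest POSTN level of the 8 cows, 8.20 against 9.11 to 11.83 in the other 7, while the high yielder, at 10.52, lay within that range.

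Biglycan (BGN) read -1.05, 1.51, -0.20 and 1.47 as pair means, with both arrays of each pair on the same side of 0. Its 2 other kept probes did not share these values. They lay between 0.05 and 0.53 in pair 1 and between -0.24 and 0.27 in pair 2. In pair 3 they lay between 0.18 and 0.44, and in pair 4 between -0.50 and 0.18. Decorin (DCN), which binds type I collagen, was 2.97-fold lower in the high yielder of pair 1, at -1.21 and -1.93, and read 0.10, -0.27 and 0.47 in pairs 2 to 4. Of its 8 other kept probes, 7 were below 0 in pair 1 and 1 stood at 1.63. These 8 lay between -0.15 and 1.05 in pair 2, between -0.55 and 4.10 in pair 3 and between -0.42 and 0.55 in pair 4. Their medians in pairs 2 to 4 were 0.11, -0.09 and 0.35. Lumican (LUM), another collagen-binding proteoglycan, read 0.03, 1.04, -1.02 and 0.53, with arrays of 0.54 and -0.48 in pair 1. Its 1 other kept probe read -0.09, 0.21, -1.10 and -0.17. SPARC, a collagen-binding glycoprotein, read -0.84, 0.29, -0.48 and 0.62, and fibrillin (FBN1), of elastic microfibrils, read -0.52, 0.50, -0.84 and 0.97.

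**Figure D3:**
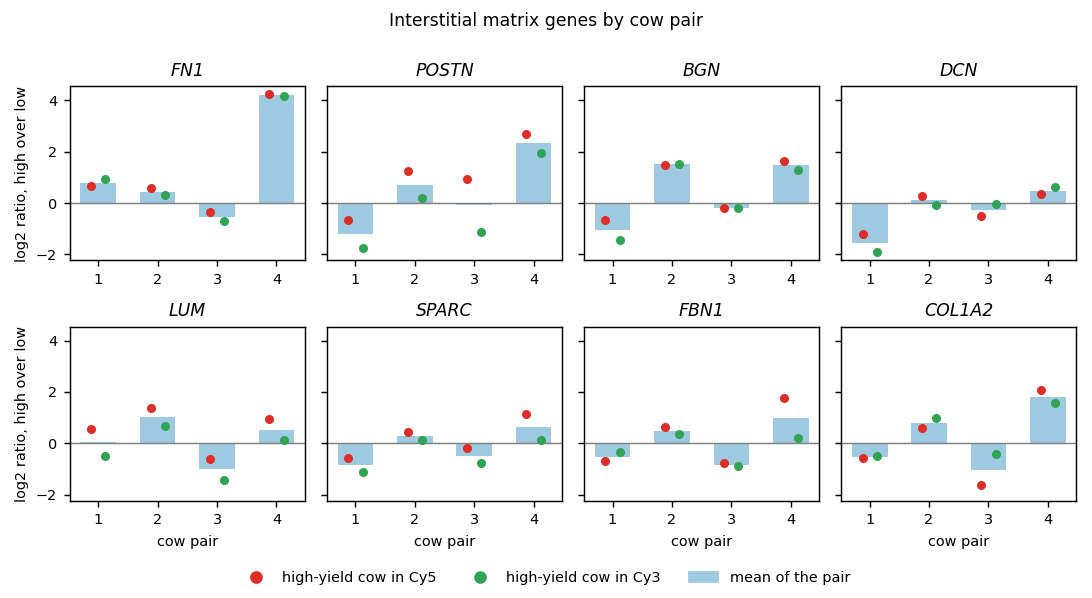
Log2 ratio of high over low yield by cow pair for 7 interstitial matrix genes and COL1A2, with bars for the mean of a pair and points for its dye-swapped arrays. The pair means of all 8 genes lie above 0 in pairs 2 and 4 and below 0 in pair 3, and FN1 reaches 4.20 in pair 4.

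Markers of fibroblasts, the main source of this matrix, had medians of -0.42, 1.03, -0.12 and 0.82 in pairs 1 to 4, over 6 of 8 markers tested with PDGFRB and TCF21 not tested. The number of these 6 markers higher in the high yielder was 2, 4, 2 and 6 in pairs 1 to 4. Of 6 markers of pericytes and smooth muscle it was 5, 4, 0 and 6, with medians of 0.26, 0.17, -0.48 and 1.12. The fibroblast list had a mean level between 10.63 and 11.61 in high and between 10.22 and 11.29 in low yielders. The pericyte and smooth muscle list had a mean level between 11.21 and 13.32 in high and between 11.35 and 11.90 in low yielders. Adipocyte markers had medians of 2.02, -0.48, -0.29 and -0.29, over 4 of 5 tested with ADIPOQ not tested. In pair 1 they were far apart, with CIDEA at 6.65, FABP4 at 3.66, LEP at 0.38 and PLIN1 at -0.30. The mean level of the adipocyte list lay between 9.79 and 10.69 in high and between 8.09 and 11.03 in low yielders. The part of these cell types in the matrix values was not tested.

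**Figure D4:**
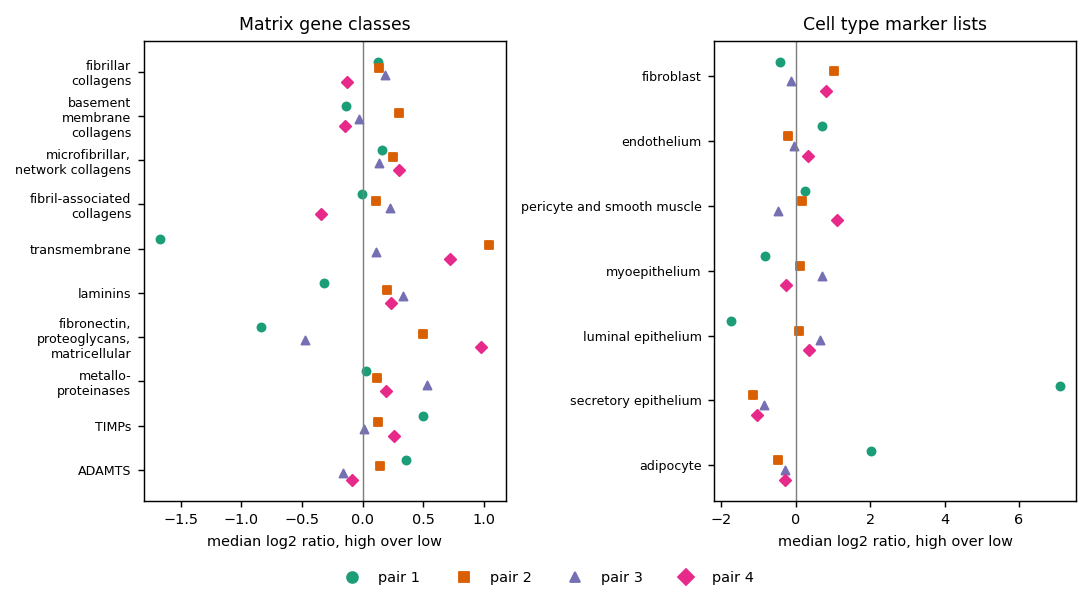
Median log2 ratio of high over low yield in each cow pair for the 10 matrix gene classes (left) and for 7 cell type marker lists (right), on different horizontal scales. The interstitial class runs from -0.84 in pair 1 to 0.97 in pair 4, and the secretory markers stand at 7.10 in pair 1.

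Of the 18 metalloproteinase genes 11 were tested, with a class median of 0.31. MMP19, an enzyme that cleaves basement membrane and other matrix proteins, had the smallest p of the members. Its arrays read 0.44 and 0.52 in pair 1, 0.33 and 0.54 in pair 2, 0.61 and 0.67 for pair 3 and 0.60 and 0.61 for pair 4, higher in the high yielder on 8 of 8. The mean was 0.54 ± 0.10 (SD, n = 4; limma, unadjusted p = 0.00687, adjusted p = 0.774). A ratio of this size was thus seen in every pair, yet it did not pass the test over all genes. The cows of pairs 1 and 4 had MMP19 levels between 9.36 and 10.01 and those of pairs 2 and 3 between 7.63 and 8.28, so the yield groups overlapped and the difference showed only within pairs. The probe lies at chr5:61997955-61998014 on the plus strand. Of the other probes, 1 read 0.09, 0.70, 0.92 and 0.51 and the dimmer one 0.07, 0.00, 0.15 and 0.14.

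MMP1, the interstitial collagenase, was the 1 member whose 4 high yielders all lay above the 4 low yielders, which is 1.49% of the members against 1.03% of all genes. Its high-yield levels were 6.64, 6.69, 7.70 and 6.67 and its low-yield levels 6.61, 6.57, 6.63 and 6.45. Apart from pair 3, at 1.18 and 0.95 on its arrays, the MMP1 difference was small, at 0.03, 0.12 and 0.21 in pairs 1, 2 and 4. No member had all high yielders below the low yielders (0 of 67, against 2.06% of all genes).

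MMP2, the gelatinase made by stromal cells, read -0.44 in pair 1 and 0.78, 0.69 and 0.67 in pairs 2 to 4. Without pair 1 its mean was 0.71 ± 0.06 (SD, n = 3; limma, unadjusted p = 0.00434, adjusted p = 0.406). The arrays of a pair were less even than these means, at 0.83 and 0.74 in pair 2, 1.11 and 0.26 in pair 3 and 1.40 and -0.06 in pair 4. Its 3 other kept probes were less even, between -0.30 and 0.61 in pair 3. MMP15, a membrane-anchored enzyme, read -0.85 and -0.67 in lactation II and 1.87 and 0.16 in lactation IV, with arrays of 1.48 and 2.27 in pair 3. MMP25, a membrane enzyme of leukocytes, read 1.73 and 1.78 in pair 1, where the low yielder was lowest of the 8 (10.20, against 11.83 to 12.96). MMP9, the gelatinase of leukocytes and macrophages, read -1.30, 0.12, 0.53 and -0.58. Neutrophil markers (5 of 5 tested) had medians of 0.03, 0.01, 0.10 and 0.31 and macrophage markers (6 of 6) of 0.03, -0.13, -0.04 and -0.13. Single markers were spread widely around these medians. Those of neutrophils lay between -0.57 and 1.76 in pair 1 and between -1.06 and 2.60 in pair 4. Those of macrophages lay between -1.08 and 1.91 in pair 1 and between -0.96 and 0.79 in pair 4. MMP11, a stromal enzyme, stood at 0.57, 0.22, 0.81 and -0.26. MMP3, MMP13 and MMP14, the last a membrane enzyme that activates MMP2, were among 7 metalloproteinases too dim to be tested.

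All 4 TIMPs were tested. TIMP3, the matrix-bound inhibitor, was 6.11-fold higher in the high yielder of pair 1, at 2.76 and 2.46, and read 0.12, -0.66 and -0.40 in the other pairs. The low yielder of pair 1 was the lowest of the 8, at 8.78 against 9.81 to 11.52. Its 2 other kept probes were smaller in pair 1, at 0.48 and 0.71. TIMP4 read 1.76 and 1.57 in pair 1 and -0.56, 0.06 and -0.09 in pairs 2 to 4, and its 1 other kept probe read 0.38 in pair 1. TIMP1, a secreted inhibitor, went the other way, at -0.94 and -1.63 in pair 1 and 0.31, 0.48 and 0.60 in the others. The arrays of TIMP1 in pair 4 had opposite signs, at 1.56 and -0.36. Its 1 other kept probe read -1.01, 0.12, -0.13 and 0.22 in pairs 1 to 4. TIMP2, which also takes part in activating MMP2, read -0.67, 0.13, -0.04 and 0.85.

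**Figure D5:**
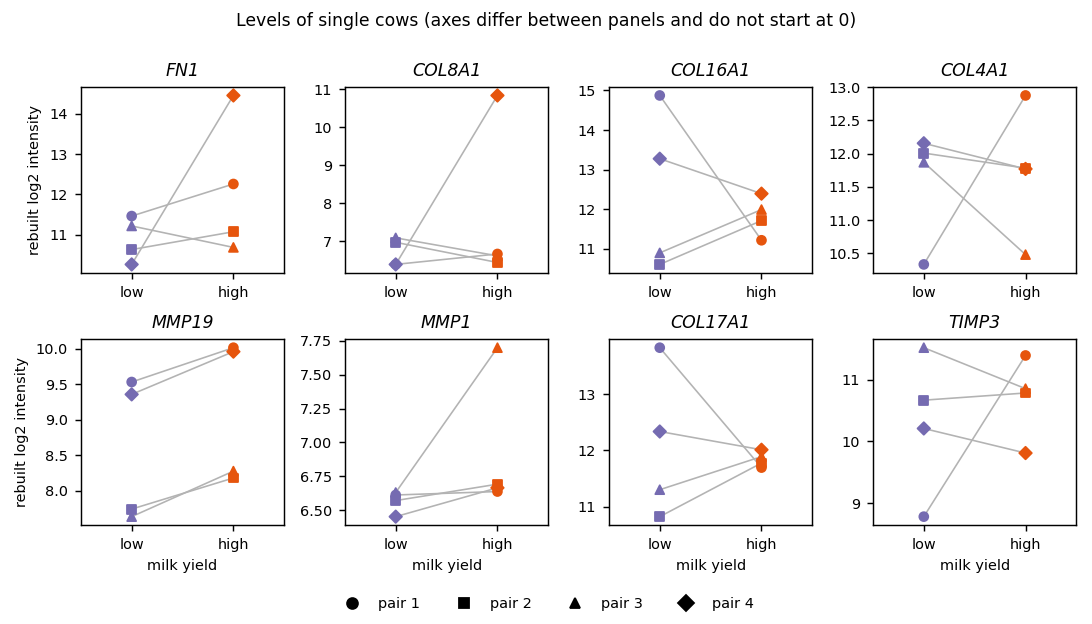
Rebuilt log2 intensity of 8 matrix genes in single cows of low and high milk yield, with lines joining the cows of a pair. For FN1 and COL8A1 the high yielder of pair 4 lies above the other 7 cows, for COL16A1 and COL17A1 the low yielder of pair 1 does, and MMP19 has parallel lines at different levels.

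ADAMTS enzymes cut proteoglycans and trim procollagens, and 9 of 18 were tested. ADAMTS17 read 1.45 and 1.25 in pair 3 and 0.52, 0.08 and -0.10 in pairs 1, 2 and 4. ADAMTS2, which removes the amino-terminal end of fibrillar procollagens, read -0.45 and 0.72 in pair 1, 0.12 and 0.89 in pair 2, -1.03 and -0.09 for pair 3 and 1.13 and 1.47 for pair 4. Its pair means were 0.13, 0.50, -0.56 and 1.30. ADAMTS4, an aggrecanase, was lower in the high yielder of pair 3, at -1.12 and -1.22. ADAMTS9 read 0.29 and 0.32 in lactation II and -0.28 and -1.23 in lactation IV. ADAMTS1, which like ADAMTS9 cuts the proteoglycan versican, stood between -0.35 and 0.79. The class median went from 0.36 and 0.14 in pairs 1 and 2 to -0.16 and -0.09 in pairs 3 and 4.

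Of the 24 members not tested, 9 were ADAMTS, 7 metalloproteinases, 6 collagens and 2 laminins, and they were well above background in 1 to 10 of 16 channels. COL25A1 came nearest, with 5 of 8 channels in each group. It read 1.10, -0.88, -0.04 and -0.63.

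Whether the effect of yield differed between lactations was tested as the ratio in lactation IV minus that in lactation II, with 2 pairs on each side. None of 67 members and 0 of 18125 genes passed (0% of the background; limma, adjusted p of the members from 0.654 to 0.996). At an unadjusted p under 0.05 stood 2 members (2.99%, against 7.33% of all genes), MMP15 among them with a difference of 1.78 (SE 0.64). Next by p came COL15A1 at -1.05, ADAMTS9 at -1.06, COL4A2 at -2.31 and LAMB2 at 0.74. Both pairs of lactation II above 0 and both of lactation IV below 0 was seen in 4 members (5.97%, against 7.83% of all genes), and the reverse in 2 (2.99%, against 7.21%).

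Of 53 genes of matrix processing and matrix receptors that are no members, 52 were on the array and 45 were tested, with DAG1, ITGA2, ITGA3, P4HA3, PLG, RECK and TGFBR1 not tested. Of these 45, 0 passed (limma, adjusted over all genes), and 3 higher (HSPG2, LOXL2 and LOXL4) and 1 lower (ITGB1) stood at an unadjusted p under 0.05 (8.89%, against 5.42% of all genes). None had 1 sign on 8 of 8 arrays. HSPG2, which encodes the basement membrane proteoglycan perlecan, read 0.31, 0.49, 0.33 and 0.46. ITGB1, the beta 1 integrin that binds collagen and laminin, read -0.63, -0.49, -1.17 and -0.24. The lysyl oxidase genes LOXL2 and LOXL4, whose enzymes cross-link collagen, read 1.49, 0.04, 1.27 and 0.54, and 1.24, 1.99, 1.32 and -0.13. Higher in 4 of 4 pairs were HSPG2, LOXL2, PLOD3 and ELN (8.89%, against 9.36% of all genes), and lower ITGB1 and PLAT (4.44%, against 8.17%).

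Probes of 1 gene were compared for the 43 members with more than 1 kept probe. The brightest probe and the median of the others had the same sign in 4 of 4 pairs for 19 members, in 3 for 13, in 2 for 7 and in 1 or 0 for 4. These last were COL3A1, BGN, MMP23B and COL8A2. They differed by more than 1 in at least 1 pair for 14 members and by more than 2 for COL3A1 and TIMP3. At least 1 kept probe had a mean of the opposite sign in 16 members. The single-pair values of FN1, COL8A1, COL4A1 and COL16A1 were shared by their other kept probes in sign, and that of COL3A1 was not. For BGN the 2 other kept probes were split, at -0.24 and 0.27 in pair 2 and -0.50 and 0.18 in pair 4.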

How the data were processed

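RNA of 8 cows was hybridised to 8 two-colour Agilent arrays (design 023647). The deposited scanner files hold intensity values per spot and a log10 ratio of red over green and, per the file headers, came from Feature Extraction 10.10.1.1. A value table was deposited by the authors too, shown by comparison with the scanner values to hold log2 ratios of high over low yield; for array 1 of pairs 2 and 3 it is strongly shrunken (slopes 0.294 and 0.287), and how it was made is not given in the sources used here. Ratios were computed from mean signal and median background with limma 3.58.1 in R 4.3.3: normexp with an offset of 50 and noise from 153 negative control spots, then loess with control spots at weight 0. Outlier spots got no value, and 0 spots were saturated. Dye swaps were averaged to 1 value per pair. Cow levels were rebuilt from mean intensity and ratio after quantile normalization, and are not measured intensities. A gene name stood for its brightest probe (highest mean intensity) and was tested if well above background in at least 6 of 8 channels of either yield group. The mean of 4 pairs was tested against 0 two-sided (lmFit, eBayes), adjusting by Benjamini-Hochberg over 18125 names; the pair is the block, since both cows share each array, per the labels. The number of arrays limits the precision. The script was tested on simulated data.

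Members, classes, the list of matrix processing genes and the marker lists (fibroblast, endothelium, pericyte and smooth muscle, myoepithelium, luminal and secretory epithelium, adipocyte, macrophage, neutrophil, T cell, erythrocyte, skeletal muscle) were chosen with earlier results of these data known. Of 50 members whose accession matched a bovine gene table (assembly ARS-UCD2.0, names only), 49 had the same symbol, and MMP23B is MMP23 there. Named by rule were the 2 brightest members of each class, members with 1 sign on 8 arrays, the 8 with the smallest p for yield, the 6 with the smallest p for the lactation difference, and the member of largest value in each pair. Alternatives were 6 other scalings or dye choices, 2 filters on dim probes, averaged probes, slide, pairing and replicates left out. The values of 1 member are not reported here.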

Additional observations from a re-analysis of the deposited data

Results flagged for a closer look

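In 43 groups of 4 pair values (33 members and 10 class medians), 3 had 1 pair far from the other pairs. These were COL8A1 in pair 4 (4.44), COL2A1 in pair 3 (0.47) and MMP2 in pair 1 (-0.44). Chance alone gives about 1 in 20 groups, but only for separate groups chosen without regard to their values. Some members here were named by their values, COL8A1 for the largest value in pair 4, and the class medians hold the same members. The count can therefore not be judged by that rate.

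As read by the brightest probes, the effect of yield had opposite signs in the lactations for 5 members described here and 1 class median. As pair means, both pairs of each lactation lay on 1 side of 0. Lactation IV minus lactation II was 1.78 for MMP15, -1.05 for COL15A1, -1.06 for ADAMTS9, -2.31 for COL4A2 and -1.89 for TIMP3. None of these passed limma's test of the difference (adjusted p between 0.654 and 0.655). In lactation II, pair 1 stood far above pair 2 for COL4A2 (2.83 against 0.28) and TIMP3 (2.61 against 0.12). The arrays differed in sign for TIMP3 in pairs 2 (0.42 and -0.19) and 4 (0.24 and -1.04). They did so for COL15A1 in pairs 2 (0.79 and -0.16) and 4 (0.96 and -1.44). At least 1 other kept probe of each member departed from the pattern. The other probe read 0.35 in pair 2 for MMP15, 0.04 in pair 3 for COL15A1 and -0.13 in pair 2 for ADAMTS9. In pair 2 the 2 other TIMP3 probes read -0.42 and -0.29, and the 2 other COL4A2 probes -0.58 and 0.17. For the median of the ADAMTS class the difference was -0.38 and was not tested. Lactation and slide cannot be told apart in these values.

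The remaining marker lists stood as follows. Erythrocyte markers were higher in the high yielder of 4 of 4 pairs in 4 of 4 genes tested, against 9.36% of all genes, with ALAS2 not tested. Their medians were 0.23, 0.66, 1.34 and 2.06, and none passed after adjustment (limma, adjusted p = 0.774). Their signal was dim, with a mean level between 7.12 and 8.98 in high and between 6.42 and 7.11 in low yielders. T cell markers had medians of -0.71, -0.36, 0.20 and -0.12. Skeletal muscle markers, with MYH1 not tested, had medians of 0.10, 0.10, -0.06 and 0.08.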

How the results depend on the processing

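The count of genes called for yield was 0 under every alternative run, the comparison of unpaired cows (no replicate block, 0 genes) included, and pairing therefore changed no call. The count for the lactation difference was 0 except with median centring in place of loess (6 genes) and without replicate 2 (12), where it lay from 0 to 12 over the pairs left out, with pair 1 as the lone pair of its lactation assumed to vary like the others; 0 members were among them. The number of members with 1 sign in 4 of 4 pairs, 6 as reported, was 3 with the scanner software's processed signals, 10 with no filter on dim probes, 2 with genes above background in all channels, 11 with the high yielder in Cy3 alone, and from 8 to 17 with 1 pair left out, where only 3 pairs need agree. Of all genes, 9.36% were higher and 8.17% lower as reported. These shares were 8.63% to 9.68% and 6.92% to 8.29% with the processed signals and the filter choices. With Cy3 alone they were 16.3% and 10.8%, and with 1 pair left out 12.4% to 21.5% and 11.5% to 17.7%. Within slides only 2 pairs need agree. In both pairs of slide 1, 26 of 67 members were higher and 3 lower, against 29.1% and 25.0% of all genes. In those of slide 2 the counts were 15 and 6, against 31.8% and 29.8% of all genes. A slide term or unpaired cows leave the pair values, and so the count in 4 of 4 pairs, as they are. The median of the members, 0.14, was 0.25 with the processed signals, 0.21 without pair 1, 0.11 without pair 4 and 0.09 with median centring. LAMA5 turned to -0.25 with the high yielder in Cy5 alone. Median centring moved the median of all genes from 0.02 to -0.14, and in pair 1 to -0.70; relative to that shift the class medians of TIMPs (-0.13) and basement membrane collagens (-0.11) stood near it. Of 180 alternative class medians, 164 stayed within the spread between pairs and 16 did not. Leaving out array 1 of pairs 2 and 3, chosen after the data were seen, gave 0 calls. Faint members (COL28A1, COL2A1, MMP1, COL5A3) are limited by signal over background.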
